A study of Mus musculus with 6 samples.

Results

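The cells described here were CD8 T cells in the cell cycle, taken from mouse tumours. They were chosen from the transcripts and receptor chains that each barcode held. A barcode was kept with at least 300 genes, at least 500 unique molecular identifiers (UMIs, each counting 1 captured RNA molecule) and at most 10% mitochondrial UMIs. It was gated as a CD8 T cell with a productive T cell receptor beta chain (TRB), at least 2 UMIs of Cd8a and Cd8b1 together and no UMI of Cd4. A gated cell counted as cycling with at least 1 UMI of Mki67 and at least 1 of Top2a, and as non-cycling with no UMI of either. Of 39424 kept barcodes, 9664 passed the CD8 gate, 1167 of these were cycling and 6412 were non-cycling. A further 630 gated cells held Mki67 alone and 1455 held Top2a alone, and these belonged to neither kind. The cycling cells numbered 209, 215 and 231 in the cko samples and 282, 101 and 129 in the ctr samples. Throughout, the values of a group are given for replicates 1, 2 and 3 in turn.

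Single-cell RNA and T cell receptor sequencing covered CD45+ cells sorted alive from subcutaneous tumours of MC38, a mouse colon adenocarcinoma line. The tumours were taken on day 25 after inoculation, and there were 3 biological replicates per group. The cko mice carried a tamoxifen-inducible knockout of Ctcf, the gene of a zinc finger protein that organises chromatin loops, with a genotype given for Tregs, the regulatory CD4 T cells. The ctr mice had wild-type Ctcf in their Tregs. The CD8 T cells were thus not the cells for which the genotype was given. The Cre driver, the deleted exons, the tamoxifen schedule and the age of the mice are not given in the sources used here. MC38 was the tumour of every mouse in both groups. Ctcf averaged 122 ± 3.65 CPM (UMI counts scaled to a common library total) in cycling cells of cko and 97.0 ± 5.78 CPM in those of ctr (SD, n = 3 each), and a count of all its transcripts cannot show whether some exons are absent.

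An activated CD8 T cell leaves rest, copies its DNA in S phase and divides after G2 and mitosis. Licensing proteins of the Mcm family load onto replication origins before S phase, cyclins and their kinases drive each step, and the kinetochore and spindle separate the chromosomes. Mki67 codes for a protein that coats mitotic chromosomes and is absent from resting cells. Top2a codes for the topoisomerase that untangles replicated DNA, with its peak in G2 and mitosis. In tumours, CD8 T cells that keep meeting antigen express inhibitory receptors such as Pdcd1 and Havcr2 together with the factor Tox, a state called exhaustion. A smaller stem-like pool expresses Tcf7 and renews the others. Cells that divide in answer to the same antigen pass on 1 rearranged receptor, so that their receptor sequences mark them as a clone.

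The receptor sequences are shown because 1 make of receptor was found among the cycling cells of all 6 libraries. It joined a TRAV16 group segment to TRAJ43 in the alpha chain (TRA) and TRBV12-1 to TRBJ2-5 in the beta chain, and both hypervariable loops (CDR3) were 42 bases long. The genes of the alpha chain lie on mouse chromosome 14 and those of the beta chain on chromosome 6. The sequence of the largest clonotype of this make in each library is written 5′ to 3′ as deposited, and capitals mark the bases that differ from cko replicate 1.
cko 1 and cko 3, TRA: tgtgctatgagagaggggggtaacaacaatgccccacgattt
cko 2, TRA: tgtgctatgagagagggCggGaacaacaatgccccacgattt
ctr 1, TRA: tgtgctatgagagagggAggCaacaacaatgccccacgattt
ctr 2 and ctr 3, TRA: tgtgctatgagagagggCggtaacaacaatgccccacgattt
cko 1 and cko 3, TRB: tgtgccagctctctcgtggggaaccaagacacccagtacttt
cko 2, TRB: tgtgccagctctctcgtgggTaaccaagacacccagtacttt
ctr 1, TRB: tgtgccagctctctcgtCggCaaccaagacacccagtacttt
ctr 2, TRB: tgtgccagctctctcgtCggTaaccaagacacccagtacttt
ctr 3, TRB: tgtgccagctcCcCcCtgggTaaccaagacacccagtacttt

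The capitals in the alpha chain did not change the translated loop in any library. Those in the beta chain left it the same as in cko replicate 1 except in ctr replicate 3, where 2 residues differed. Receptors of this make were carried by 2475 gated cells in 11 clonotypes, and 277 of those cells were cycling. They made up 55.0%, 4.83% and 42.9% of the cycling cells with both chains in cko and 11.8%, 5% and 20.2% of those in ctr. Among cells with this receptor, 10.3%, 15.4% and 10.2% cycled in cko and 16.8%, 14.3% and 13.1% cycled in ctr. Among cells with other receptors, 9.80%, 14.8% and 11.6% cycled in cko and 18.3%, 12.1% and 9.42% cycled in ctr. In each library the 95% Wilson intervals of both shares overlapped. The make was singled out after its values were seen, and no test was run on it.

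Each of the 6 libraries held 45322797 to 55515267 UMIs. The cycling cells were about as deep in both groups, with medians of 16157, 21026 and 17928 UMIs in cko and 15474, 19062 and 15779 UMIs in ctr. Non-cycling cells were shallower in all 6 libraries, with medians of 6477 to 7947.5 UMIs, and shares of cells with a UMI are therefore given after thinning each cell to 3000 UMIs. In cko replicate 2, 10.7% of cycling and 14.7% of non-cycling cells carried 2 beta chains, against 0.43% to 4.65% of cycling and 0.53% to 5.51% of non-cycling cells in the other libraries. In the same library B and plasma cell markers summed to 221 CPM in cycling cells, against 1.42 to 5.22 CPM elsewhere, with at least 1 of these UMIs in 61.4% of its cycling cells. Between 41 and 81 barcodes were shared by any pair of libraries, and none of them was a cycling cell in both libraries of a pair. Replicates 1 and 3 of cko shared 9 gated barcodes, 1 of them with the same beta chain CDR3 in both, and no other pair held such a barcode. Replicates 1 and 3 of cko shared 79 paired clonotypes, of 203 and 256, whereas no other pair of libraries shared more than 1. Of these clonotypes 20 held cycling cells in both libraries. All 79 together accounted for 93.1% of the paired cycling cells of cko replicate 1 and 73.3% of those of cko replicate 3. The labels call them separate biological replicates, and whether their cells came from separate mice was not tested. The SD and p-values below treat them as separate samples, and the leading counts are also given with those libraries added together as 1 sample.

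The label was checked on markers that the gate did not use. All 6 T cell markers (Cd3e, Cd3d, Cd3g, Trac, Cd2, Lck) were detected in every library, at a sum of 3410 to 4823 CPM in cycling cells of cko and 4081 to 4383 CPM in those of ctr. Cell cycle transcripts outside the gate were present throughout. Birc5, a subunit of the complex that corrects chromosome attachment, averaged 419 ± 58.4 CPM in cycling cells and 3.56 ± 1.61 CPM in non-cycling cells (SD, n = 6 each). Rrm2, the small subunit of the enzyme that makes deoxynucleotides, averaged 340 ± 78.5 CPM in cycling cells and 4.25 ± 0.76 CPM in non-cycling cells. Both are values of the cells that the gate sorted and carry no test. At the edge of the gate, 34, 16 and 32 cycling cells in cko and 18, 18 and 18 in ctr held exactly 1 UMI of each gate gene. The median cycling cell held 4 to 6 UMIs of Mki67 and 5 to 10 of Top2a.

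Cycling cells made up 9.35%, 14.7% and 10.5% of the gated CD8 T cells in cko, against 17.7%, 12.02% and 9.73% in ctr. The groups overlapped, since ctr replicate 3 lay beside cko replicate 1 and cko replicate 2 lay above both lower ctr samples. The mean difference of -1.64 percentage points was within the spread between samples (exact two-sided permutation test, p = 0.6, where 3 against 3 samples allow no p below 0.1). After thinning to 3000 UMIs the shares were 4.35%, 6.38% and 4.91% in cko and 9.83%, 4.43% and 4.85% in ctr. Without ctr replicate 1, the library with the largest share, the difference turned to 0.62 percentage points. Intervals on the shares cover counting error only.

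**Figure D1:**
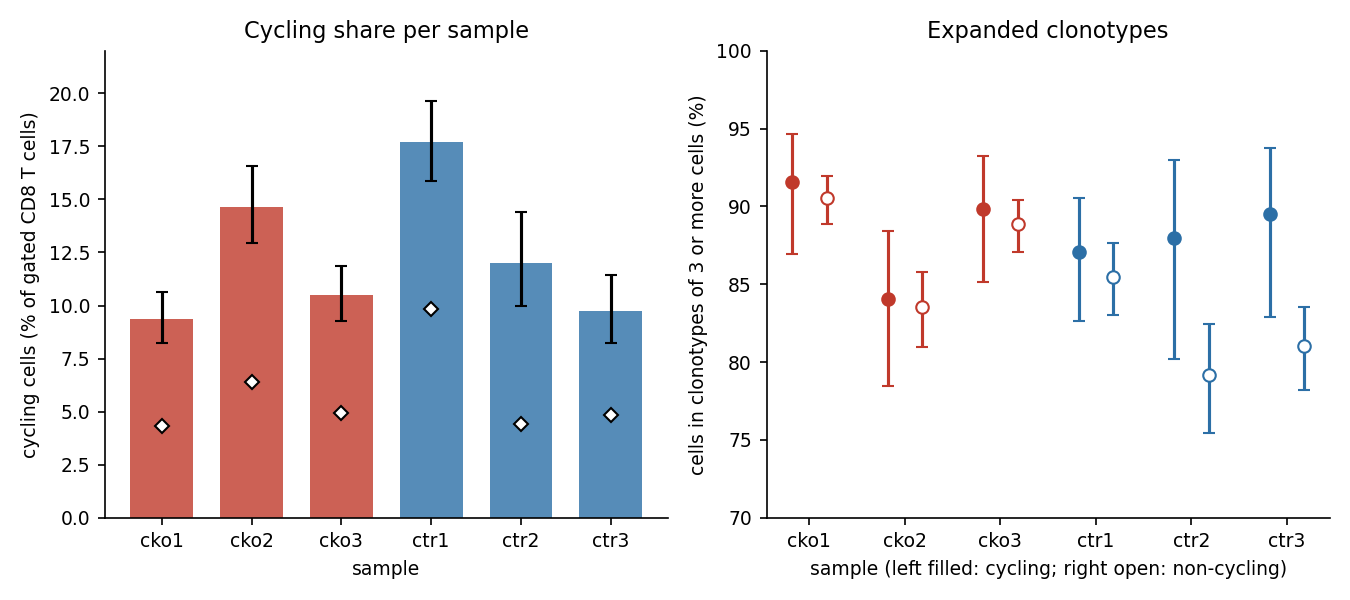
Left: cycling cells as a percentage of gated CD8 T cells, 1 bar per sample, cko in red and ctr in blue, with 95% Wilson intervals; diamonds mark the share after thinning each cell to 3000 UMIs. Right: percentage of cells in clonotypes of 3 or more cells among cycling cells (filled) and non-cycling cells (open), with 95% Wilson intervals on an axis that starts at 70%; the filled point lies above the open one in all 6 samples.

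Within the cycling cells, transcripts of S phase were set against those of G2 and mitosis, without the gate genes. S phase transcripts made up 29.98%, 34.4% and 34.2% of the UMIs of both lists in cko, against 30.9%, 36.8% and 33.6% in ctr. The samples of both groups lay among each other, and the difference of -0.92 percentage points was within their spread (exact two-sided permutation test, p = 0.7). Leaving out cko replicate 1 turned it to 0.52 percentage points and leaving out ctr replicate 2 turned it to 0.60 percentage points. More S than G2 and mitosis UMIs were counted in 25.8%, 27.9% and 25.1% of cycling cells of cko and in 21.3%, 42.6% and 27.9% of those of ctr. Top2a, which the gate required, is itself a gene of the later phases.

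Clonal expansion was compared between cycling and non-cycling cells of the same tumour, since the receptor sequence had no part in the sorting into these kinds. A clonotype is a pair of alpha and beta chains with the same segments and CDR3 bases, and it was called expanded with at least 3 gated cells. In cko replicate 1, 91.6% of cycling and 90.5% of non-cycling cells belonged to expanded clonotypes. In cko replicate 2 they held 84.1% of cycling and 83.5% of non-cycling cells, and in cko replicate 3 they held 89.9% of cycling and 88.9% of non-cycling cells. In ctr the cycling shares were 87.1%, 88.0% and 89.5% and the non-cycling shares 85.5%, 79.2% and 81.0%. Cycling cells were thus the more often expanded ones in 6 of 6 samples, by a mean of 3.58 percentage points (exact two-sided sign-flip permutation test over samples, p = 0.03125, the smallest that 6 pairs allow). The gap was smaller in cko and in ctr replicate 1 than in ctr replicates 2 and 3, and without any 1 sample the p could not fall below 0.0625. Counted by the beta chain alone it was 4.55, with expansion from 5 cells it was 2.13 with cko replicates 1 and 3 added together it was 4.19 and without the mostly cycling clonotype of cko replicate 2 it was 3.21 percentage points (exact p = 0.15625 over the 6 pairs), and none of these passed the threshold. Between the genotypes, the share of cycling cells in expanded clonotypes differed by 0.30 percentage points (exact two-sided permutation test, p = 0.9).

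The cycling cells of a library came from 38, 75 and 57 clonotypes in cko and 83, 29 and 44 in ctr. Of these clonotypes 28, 46 and 40 in cko and 55, 20 and 34 in ctr also held gated cells that were not cycling. The clonotype with most cycling cells gave 53.5%, 12.6% and 41.5% of the paired cycling cells in cko and 10.8%, 37.0% and 16.9% in ctr. At least 20 gated cells in a library were held by 72 clonotypes, 12 of them in both cko replicate 1 and cko replicate 3, which gave 84 values. The median of these values was 13.3% of cells cycling, and 83 of the 84 lay between 0% and 40%. No cycling cell was found in 2 of the 72 clonotypes. In 14 clonotypes with at least 10 gated cells in both cko replicate 1 and cko replicate 3, the cycling share ranged up to 22.99% in replicate 1 and up to 19.4% in replicate 3. The shares of a clonotype in the pair of libraries went together across those 14 (Pearson r = 0.86, Spearman rho = 0.83, given as a description, since the clonotypes share the same pair of libraries).

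**Figure D2:**
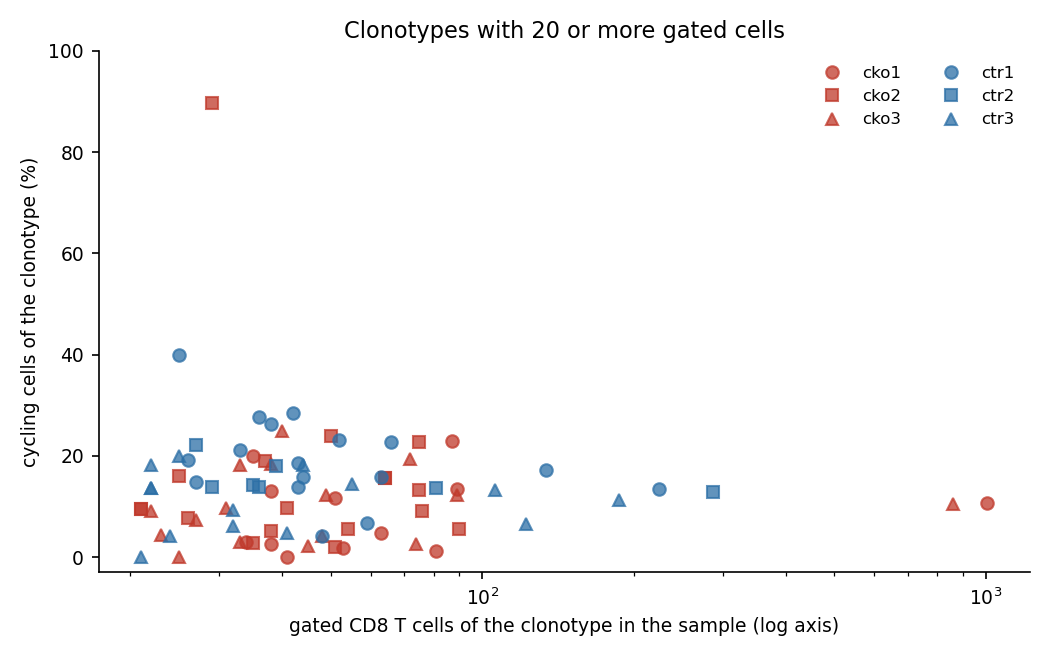
Each point is a clonotype in 1 library with at least 20 gated CD8 T cells, and the 12 clonotypes found at this size in both cko replicate 1 and cko replicate 3 have a point for each: its number of gated cells (horizontal, log axis) against the percentage of them that cycled (vertical), with cko in red, ctr in blue and the replicate shown by the marker. Of 84 points, 83 lie between 0% and 40%, and 1 clonotype of cko replicate 2 lies at 89.7%.

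In cko replicate 2, 1 clonotype lay far from the others and was chosen for description after its values were seen. Its chains joined TRAV6-2 to TRAJ26 and TRBV13-3 to TRBJ2-7, and its sequences are given so that it can be recognised elsewhere.
mostly cycling clonotype, TRA: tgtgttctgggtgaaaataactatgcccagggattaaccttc
mostly cycling clonotype, TRB: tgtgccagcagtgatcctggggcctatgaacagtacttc
Of its 29 gated cells 26 were cycling (89.7%, 95% Wilson interval 73.6% to 96.4%), which was 12.1% of the cycling cells of that library and 18.9% of their UMIs. Of the 29 cells 0 carried 2 beta chains and 1 was among the 5% of barcodes with the highest doublet scores. Its cycling cells were deep, with a median of 33936.5 UMIs against 19893 UMIs in the other cycling cells of the library.

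The granzymes of that clonotype differed from those of its neighbours in the same library. Gzmf had 0 UMIs in it, an upper limit of 3.11 CPM, against 540.2 CPM in the other cycling cells of cko replicate 2. Gzmd, another granzyme of the same gene cluster, had 1.04 CPM against 387 CPM. Gzmb stood at 1770 CPM in the clonotype and 2077 CPM in the other cycling cells, and Gzmk at 349 CPM and 328 CPM. Ccl5, a chemokine of effector cells, had 67.4 CPM against 1553 CPM, and the inhibitory receptor Lag3 had 38.4 CPM against 290.1 CPM. Klf2, a factor of cells that recirculate, had 652 CPM against 246 CPM. Its target S1pr1, the receptor for leaving tissue, had 84.0 CPM against 23.5 CPM, and Cxcr3 had 137 CPM against 46.0 CPM. Without thinning, Ighm, an immunoglobulin heavy chain, had a UMI in 82.8% of the 29 cells. It had one in 17.9% of the other gated cells of the library. All gated cells of the library had a median of 7746 UMIs, so that the deeper cells of the clonotype had more chances of a UMI. The part of depth in these shares was not tested. The level of Ighm was 284 CPM against 34.4 CPM in the other cycling cells. That of Mzb1, a chaperone of antibody-secreting cells, was 205 CPM against 23.5 CPM. That of Jchain, which joins secreted antibodies, was 305 CPM against 115 CPM. The light chain segment Igkv6-15 had 2320.4 CPM against 18.9 CPM, and the heavy chain segment Ighv2-9-1 had 953 CPM against 0.97 CPM. Without thinning, Igkv6-15 had a UMI in 31.0% of the 29 cells and in 21.3% of the other gated cells. Ighv2-9-1 had one in 6.90% and 1.60%, so that its level in the clonotype rested on 2 cells. Mzb1 had one in 24.1% and 13.6%. Jchain had one in 34.5% and 48.1%, the other way round from its CPM. The T cell receptor component Cd3e had 423 CPM against 943 CPM, with a UMI in 96.6% of the 29 cells. The part of such transcripts in these values was not tested. All these values come from 1 library, so they have no test.

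Between the genotypes, cycling CD8 T cells of cko had more Cxcr3, Itgb7 and Gzmk and less Bcl2 and Tox than those of ctr. Of 10098 genes tested, 236 passed an adjusted p of 0.05 (2.34%), 81 higher (0.802%) and 155 lower (1.53%) in cko. The test was edgeR's quasi-likelihood test on UMIs summed per sample with Benjamini-Hochberg adjustment, and the CPM values of this comparison are scaled by TMM normalisation over its 6 sums. With cko replicates 1 and 3 added together 169 genes passed, 59 of them higher. In non-cycling cells of the same tumours 691 of 10878 genes passed (6.35%), 323 higher (2.97%) and 368 lower (3.38%), and 143 did with those replicates added together.

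The chemokine receptor Cxcr3, which guides effector T cells toward interferon-induced ligands, lies at chrX:101731535-101734269 on the minus strand of GRCm38. It measured 80.4, 65.4 and 65.2 CPM in cko, against 16.7, 25.1 and 19.5 CPM in ctr. All cko samples lay above all ctr samples, and the log2 fold change was 1.81 (SE 0.18, edgeR adjusted p = 0.000297). Itgb7, the integrin beta chain that pairs with alpha E or alpha 4 in cell adhesion (chr15:102215995-102231944, minus strand), measured 205, 192 and 189 CPM in cko, against 52.8, 54.7 and 64.1 CPM in ctr. No sample of one group came near the other group, at a log2 fold change of 1.78 (SE 0.13, edgeR adjusted p = 1.92e-05). Emb, an immunoglobulin superfamily membrane protein that escorts transporters, measured 217, 152 and 208 CPM in cko, against 73.5, 46.6 and 44.6 CPM in ctr. Lef1, a transcription factor related to Tcf7, measured 33.3, 39.4 and 31.5 CPM in cko, against 9.43, 6.02 and 15.2 CPM in ctr. Both were higher in every cko sample, Emb with a log2 fold change of 1.78 (SE 0.21, edgeR adjusted p = 0.00233) and Lef1 with one of 1.77 (SE 0.25, edgeR adjusted p = 0.0031). Of these 4 genes, Cxcr3, Emb and Itgb7 passed under all 19 alternative settings, while Lef1 did not among cells with 5000 to 15000 UMIs (edgeR adjusted p = 0.0562).

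Of the other named genes that rose in cko, Gzmf, a granzyme of late effector cells in mice, measured 710.2, 453 and 459 CPM in cko, against 269, 155 and 188 CPM in ctr, a log2 fold change of 1.40 (SE 0.25, edgeR adjusted p = 0.0334). It lost its call without cko replicate 2 (edgeR adjusted p = 0.118), cko replicate 3 (0.0503) or ctr replicate 3 (0.0824). Il1r2, the decoy receptor for interleukin-1, measured 75.5, 62.9 and 92.5 CPM in cko, against 29.6, 33.1 and 14.3 CPM in ctr, a log2 fold change of 1.57 (SE 0.27, edgeR adjusted p = 0.0193), which was lost without cko replicate 1 (0.0689) or ctr replicate 1 (0.0918) and with cko replicates 1 and 3 added together (0.0508). Gzmf passed in 11 of the 19 alternatives (highest edgeR adjusted p 0.401) and Il1r2 in 14 (0.334). Itgb3, the integrin beta chain of the vitronectin receptor, rose by a log2 of 1.41, the calcium-binding protein gene Tesc by 1.48 and Ttc39c by 1.39, and these 3 passed under all 19 alternatives. Crtam, an adhesion receptor of activated CD8 T cells, rose by 1.24, Serpine2, a protease inhibitor, by 1.20 and Cnih2 by 1.19. Crtam lost its call without ctr replicate 3 (edgeR adjusted p = 0.0548) and Serpine2 without cko replicate 2 (0.0612) or ctr replicate 3 (0.0548). Over all 19 alternatives Crtam passed in 14 (highest edgeR adjusted p 0.574, at 5000 to 15000 UMIs), Serpine2 in 14 (0.478, without cells holding myeloid or B cell UMIs) and Cnih2 in 16 (0.205, with the gate on Birc5, Cdk1 and Tyms).

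Among T cell genes that fell in cko, Bcl2, the mitochondrial inhibitor of apoptosis (chr1:106538178-106714274, minus strand), measured 45.1, 37.4 and 36.5 CPM in cko, against 218, 149 and 132 CPM in ctr. The lowest ctr sample lay well above the highest cko sample, at a log2 fold change of -2.08 (SE 0.19, edgeR adjusted p = 0.000311). Zfp683, the factor Hobit of tissue-resident T cells, measured 6.07, 2.23 and 5.58 CPM in cko, against 18.9, 31.1 and 21.6 CPM in ctr, a log2 fold change of -2.36 (SE 0.33, edgeR adjusted p = 0.00395). Chn2, a GTPase-activating protein for Rac, measured 8.39, 9.95 and 9.01 CPM in cko, against 45.4, 51.6 and 43.3 CPM in ctr, and its groups were far apart at a log2 fold change of -2.34 (SE 0.17, edgeR adjusted p = 1.92e-05). Id3, a regulator of memory and stem-like T cells, measured 2.89, 6.50 and 4.72 CPM in cko, against 25.2, 19.6 and 13.4 CPM in ctr, a log2 fold change of -2.03 (SE 0.30, edgeR adjusted p = 0.00512). Bcl2 and Chn2 passed under all 19 alternatives and Id3 under the 18 in which it was tested. Zfp683 lost its call among cells with 5000 to 15000 UMIs alone (edgeR adjusted p = 0.0943).

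The larger part of the named genes that fell were macrophage genes. Apoe, a lipid carrier made by macrophages, measured 20.5, 17.9 and 25.1 CPM in cko, against 318, 211 and 225 CPM in ctr, a log2 fold change of -3.57 (SE 0.19, edgeR adjusted p = 5.8e-06). Apoe passed in 16 of 19 alternatives (highest edgeR adjusted p 0.658). C1qa, a chain of complement C1q, measured 8.39, 17.3 and 10.3 CPM in cko, against 122, 135 and 111 CPM in ctr, a log2 fold change of -3.33 (SE 0.23, edgeR adjusted p = 2.95e-05). C1qc fell by 3.09, Ly86 by 2.91, Lgmn by 2.45, Aif1 by 2.17, Cxcl16 by 1.97, Cd72 by 1.93 and Csf1r by 1.92 on the log2 scale. Ly86 lost its call when any cko replicate or ctr replicate 1 was left out, and Cxcl16 without cko replicate 3, ctr replicate 1 or ctr replicate 2. The 10 macrophage markers summed to 156 to 394 CPM in cycling cells of cko and 925 to 1302 CPM in those of ctr, and to 579 to 688 CPM and 1228 to 1714 CPM in non-cycling cells of cko and ctr. Without cells holding a UMI of Lyz2, C1qa, C1qb, Csf1r, Cd79a or Adgre1, 130 genes passed, 58 of them higher, and of the 12 lower genes named 5 could be tested and 4 passed. Without the 5% of barcodes with the highest doublet scores 140 genes passed, 69 of them higher, and 3 of those 12 genes (Bcl2, Chn2 and Zfp683). The part of macrophage transcripts in the other results was not tested beyond these counts.

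**Figure D3:**
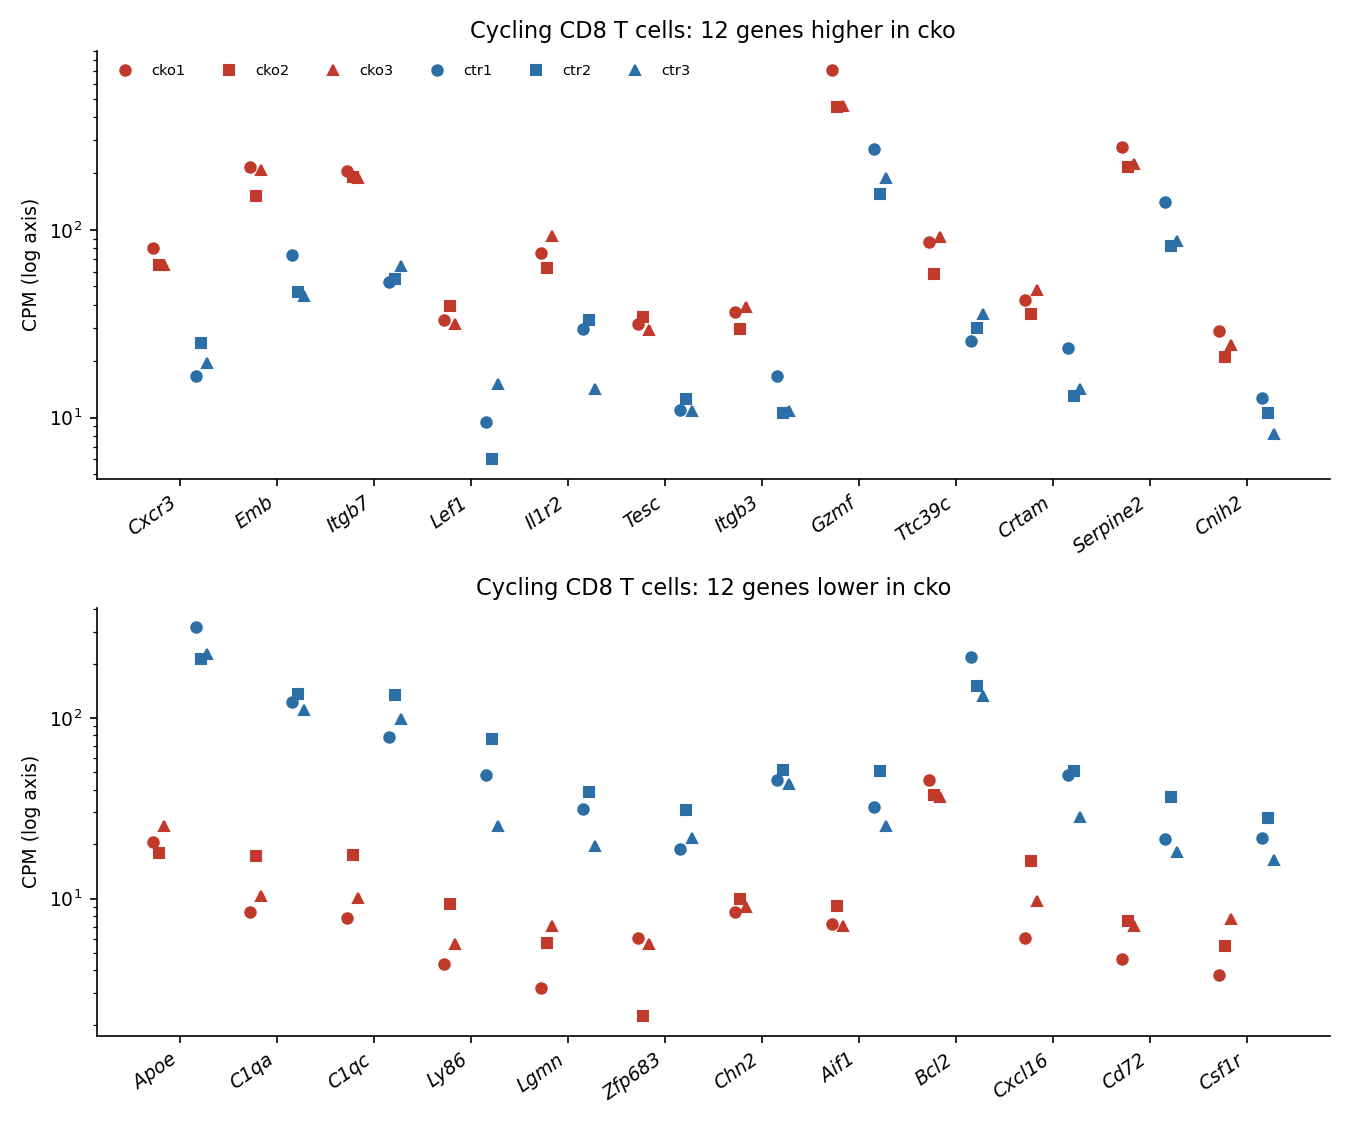
Level in cycling CD8 T cells (CPM, log axis) of the 12 higher and 12 lower genes named by size of change, with 1 point per sample, cko in red on the left and ctr in blue on the right of each gene. The groups do not overlap in any of them, as the choice of these genes required.

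Across the cell cycle lists 2 genes passed, beside 2.34% of all genes tested. None of the 42 S phase, 17 licensing, 34 DNA synthesis, 41 kinetochore and spindle, 22 cohesin and condensin or 19 E2F and DREAM genes tested passed in either direction. Of 50 G2 and mitosis genes 1 rose, the chromatin protein gene Hmgb2, and of 23 cyclins, kinases and inhibitors 1 fell. That gene was Cdk6, the kinase that starts the cycle with D cyclins, which measured 81.3, 76.6 and 84.7 CPM in cko, against 125, 116 and 126 CPM in ctr, a log2 fold change of -0.59 (SE 0.12, edgeR adjusted p = 0.0193). Cdk6 lost its call without replicate 1 or 3 of either group (edgeR adjusted p from 0.0639 to 0.0932), and Hmgb2 without any replicate other than cko replicate 2 (0.0708 to 0.145). The medians of the S phase and of the G2 and mitosis lists were 0.10 and 0.03 on the log2 scale, beside 0.00 over all genes tested. Mki67 averaged 372 ± 34.0 CPM in cko and 342 ± 54.2 CPM in ctr, and Top2a averaged 481 ± 39.4 CPM in cko and 565 ± 105 CPM in ctr (SD, n = 3 each).

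Of 18 exhaustion genes tested 1 rose and 3 fell, where 0.802% of all genes rose and 1.53% fell, and their median log2 fold change was -0.12. These shares over all genes are the background of the lists that follow too. Havcr2, the inhibitory receptor TIM-3, measured 154, 128 and 143 CPM in cko, against 78.7, 96.8 and 80.5 CPM in ctr, a log2 fold change of 0.73 (SE 0.13, edgeR adjusted p = 0.0124). Tox, the factor that sets up the exhausted state (chr4:6686353-6991557, minus strand), measured 74.0, 44.3 and 76.4 CPM in cko, against 123, 146 and 147 CPM in ctr, a log2 fold change of -1.10 (SE 0.19, edgeR adjusted p = 0.0135). Both sets of samples were separate, with Havcr2 high and Tox low in every cko sample. Havcr2 lost its call without cko replicate 3 (edgeR adjusted p = 0.0526), ctr replicate 1 (0.0656) or ctr replicate 3 (0.0678), and Tox without ctr replicate 3 (0.0571). Of the 19 alternatives Havcr2 passed in 14 and Tox in 16. The other genes that fell were Nr4a2, a factor induced by receptor signalling, by 0.83, and Cd244a, the receptor 2B4, by 1.18 on the log2 scale. Nr4a2 lost its call without cko replicate 1 or any 1 of the ctr replicates (edgeR adjusted p from 0.0637 to 0.147). Without cells holding myeloid or B cell UMIs Havcr2, which macrophages also express, had an adjusted p of 0.0557 in edgeR. Pdcd1, which codes for PD-1, was not among them: it measured 871, 579 and 779 CPM in cko, against 567, 606 and 527 CPM in ctr, a log2 fold change of 0.39 (SE 0.15, edgeR adjusted p = 0.213).

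Of 15 stem-like genes 2 rose (Lef1 and Satb1) and 2 fell (Id3 and Bcl2), with a median of -0.05, beside 2.34% of all genes passing. Satb1 lost its call without any replicate other than cko replicate 2 (edgeR adjusted p from 0.0814 to 0.117). Tcf7 measured 9.25, 24.2 and 7.94 CPM in cko, against 12.3, 4.01 and 9.09 CPM in ctr. It did not pass, at a log2 fold change of 0.62 (SE 0.57, edgeR adjusted p = 0.689). The positive sign rested on cko replicate 2, without which the log2 fold change was -0.088. S1pr1 and Slamf6 were likewise high in that library, the one with the mostly cycling clonotype, at 36.1 CPM for S1pr1 against 6.94 and 11.2 CPM in the other cko samples.

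Of 19 cytotoxicity genes 2 rose (Gzmf and Gzmk) and 1 fell (Ctsc, the protease that activates granzymes). Ctsc lost its call without replicate 1 or 3 of either group (edgeR adjusted p from 0.0516 to 0.0686). Gzmk, a granzyme of less differentiated effector cells, measured 268, 344 and 317 CPM in cko, against 143, 124 and 165 CPM in ctr, a log2 fold change of 1.11 (SE 0.14, edgeR adjusted p = 0.00161), and it passed under all 19 alternatives. Gzmb measured 2177, 2090.1 and 1847 CPM in cko, against 885, 723 and 1496 CPM in ctr: all cko samples were above all ctr samples, but ctr replicate 3 lay far above the other ctr samples and the gene did not pass, at a log2 fold change of 0.98 (SE 0.27, edgeR adjusted p = 0.144). Gzma measured 52.9, 730.2 and 130.4 CPM in cko, against 103, 122 and 51.5 CPM in ctr, with 1 library holding most of it. Ly6c2, a surface protein of effector and memory CD8 T cells, measured 1721, 983 and 1317 CPM in cko, against 640.0, 794 and 537 CPM in ctr, above all ctr samples in each cko sample, and missed the threshold at 1.03 (SE 0.22, edgeR adjusted p = 0.053).

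Of 12 chemokine receptor genes 3 rose and 2 fell. Besides Cxcr3 these were Ccr2, a receptor for monocyte chemoattractants, and Cxcr4, the receptor for Cxcl12. Ccr2 measured 60.4, 49.5 and 65.6 CPM in cko, against 26.1, 42.6 and 27.7 CPM in ctr, a log2 fold change of 0.89 (SE 0.19, edgeR adjusted p = 0.0334). Cxcr4 measured 39.6, 48.1 and 48.3 CPM in cko, against 25.4, 17.6 and 18.2 CPM in ctr, a log2 fold change of 1.12 (SE 0.18, edgeR adjusted p = 0.0055). Ccr2 lost its call with cko replicates 1 and 3 added together (edgeR adjusted p = 0.0712) and without cko replicate 1 or 3 or ctr replicate 1 or 3 (0.0622 to 0.154). Ccr2 passed in 12 of 19 alternatives. Cx3cr1, the fractalkine receptor, fell by 1.19 and Ccrl2 by 1.33. Ccrl2 lost its call without the highest doublet scores (edgeR adjusted p = 0.402) and without cells holding myeloid or B cell UMIs (0.289). Cx3cr1 and Cxcr4 lost theirs at 5000 to 15000 UMIs alone (0.0761 and 0.251). Of 25 effector genes 2 rose (Cxcr3 and the interleukin-12 receptor chain Il12rb2) and 1 fell (Cx3cr1). Il12rb2 kept its call without cko replicate 2 and lost it without any other replicate (edgeR adjusted p from 0.0631 to 0.125).

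Of the 23 genes of the dissociation stress list 6 fell and none rose, with a median of -0.50 beside 0.00 over all genes. They were Fos, Fosb, Jun, Dusp1, Atf3 and Zfp36, of which Fos, a subunit of the factor AP-1, measured 147, 117 and 163 CPM in cko, against 523, 429 and 416 CPM in ctr, a log2 fold change of -1.68 (SE 0.15, edgeR adjusted p = 0.000133). Dusp1 lost its call without cko replicate 1 or 2 or ctr replicate 3, Fosb without cko replicate 3 or ctr replicate 1 or 3, and Zfp36 without cko replicate 2 or ctr replicate 1 (edgeR adjusted p from 0.0503 to 0.147). At 5000 to 15000 UMIs all 6 lost their calls, Fos with an adjusted p of 0.0554 in edgeR and the others with 0.109 to 0.710. Without the highest doublet scores Atf3, Dusp1, Fosb and Zfp36 lost theirs (0.0518 to 0.285), and without cells holding myeloid or B cell UMIs Dusp1 and Fosb did (0.0569 and 0.188). The macrophage markers were also lower in these cko samples, at 156 to 394 CPM in cko and 925 to 1302 CPM in ctr. Tissue handling is known to induce these genes, and its part in their difference was not tested. Myc, the factor that drives growth of activated T cells, measured 29.8, 38.8 and 43.3 CPM in cko, against 62.5, 119 and 78.8 CPM in ctr, a log2 fold change of -1.20 (SE 0.24, edgeR adjusted p = 0.0336). Myc lost its call without any 1 of the cko replicates or ctr replicate 3 (edgeR adjusted p from 0.0666 to 0.143), and it passed in 11 of 19 alternatives. In the remaining lists, 1 of 27 type I interferon genes, 2 of 31 interferon gamma genes, 1 of 22 glycolysis genes and 1 of 28 apoptosis genes fell, and none of 22 MHC class I or 36 oxidative phosphorylation genes passed. Of the 45 genes followed whatever their result, 5 passed (Havcr2, Tox, Gzmk, Ccr2 and Myc) and 40 did not.

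Cycling and non-cycling cells of the same tumours are next set side by side. Since the transcripts of the same cells sorted them into these kinds, the values describe the gate and carry no test. Of 10158 genes 5645 passed the threshold (55.6%), 2715 higher (26.7%) and 2930 lower (28.8%) in cycling cells, and nothing is read from these counts. With both kinds limited to cells of 5000 to 15000 UMIs the count was 2539. All 42 S phase genes were higher in cycling cells, with a median log2 fold change of 2.61, and all 50 G2 and mitosis genes, with a median of 5.18. The 41 kinetochore and spindle genes had a median of 5.39 and the 17 licensing genes one of 2.77, while the median over all genes was -0.05.

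Outside those lists, genes of DNA copying and mitosis led the higher side. Pclaf, a partner of the sliding clamp PCNA, measured 740.0, 1022 and 771 CPM in cko and 875, 688 and 739.8 CPM in ctr among cycling cells, against 9.03, 11.1 and 4.14 CPM in cko and 10.4, 6.54 and 6.60 CPM in ctr among non-cycling cells. Pbk, a mitotic kinase, measured 50.5, 45.7 and 46.0 CPM in cko and 56.9, 45.0 and 45.5 CPM in ctr among cycling cells, against 0, 0.14 and 0.16 CPM in cko and 0.44, 0 and 0 CPM in ctr among non-cycling cells. Aspm, a protein of the spindle poles, was higher by a log2 of 6.31 and Neil3, a DNA glycosylase, by 7.52. Of the cyclins, kinases and inhibitors 18 were higher and 6 lower in cycling cells. Ccna2, the cyclin of S phase and G2, averaged 204 ± 28.7 CPM in cycling and 0.70 ± 0.43 CPM in non-cycling cells (SD, n = 6 each). Cdkn1a, the inhibitor p21, averaged 225 ± 62.7 CPM in cycling and 103 ± 11.4 CPM in non-cycling cells. Cdkn1b, the inhibitor p27 of resting cells, averaged 60.0 ± 10.4 CPM in cycling and 95.5 ± 22.5 CPM in non-cycling cells. Ctcf averaged 109 ± 16.4 CPM in cycling and 68.7 ± 8.92 CPM in non-cycling cells and was higher in cycling cells of all 6 samples.

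On the lower side stood chemokine, interferon and stem-like genes. Ccl5 measured 3264, 1347 and 2646 CPM in cko and 1612, 1228 and 1629 CPM in ctr among cycling cells, against 9119, 6726 and 8253 CPM in cko and 4950.1, 4407 and 5910.2 CPM in ctr among non-cycling cells, which is lower in the cycling cells of every sample. All 28 type I interferon genes tested were lower, with a median log2 fold change of -0.72, among them Ifit1 at -1.73 and Ifit3 at -1.63. Of 31 interferon gamma genes 27 were lower and of 15 stem-like genes 13 were, with Tcf7 at -1.52, Bcl2 at -1.19 and Il7r, the receptor for the survival cytokine interleukin-7, at -1.09. Of 12 chemokine receptor genes 11 were lower, with Cxcr6 at -0.87. These counts go by sign alone. Past the threshold, 25 of the 28 type I interferon, 21 of the 31 interferon gamma, 8 of the 15 stem-like and 7 of the 12 chemokine receptor genes were lower, beside 28.8% of all genes. Here and in the counts below, the threshold was applied to cells sorted by their own transcripts. These counts are a description and nothing is read from them as a test. Exhaustion genes were nearer to level: 13 of 18 were lower by sign, 10 of them past the threshold, and the median was -0.20. By sign all 36 oxidative phosphorylation genes were higher, by a median of 0.40, and 14 of 22 glycolysis genes were. Past the threshold 26 and 10 of them were higher, beside 26.7% of all genes. Gzmb averaged 1540.4 ± 641 CPM in cycling and 1492 ± 593 CPM in non-cycling cells, the cycling cells being higher in 2 of 6 samples.

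**Figure D4:**
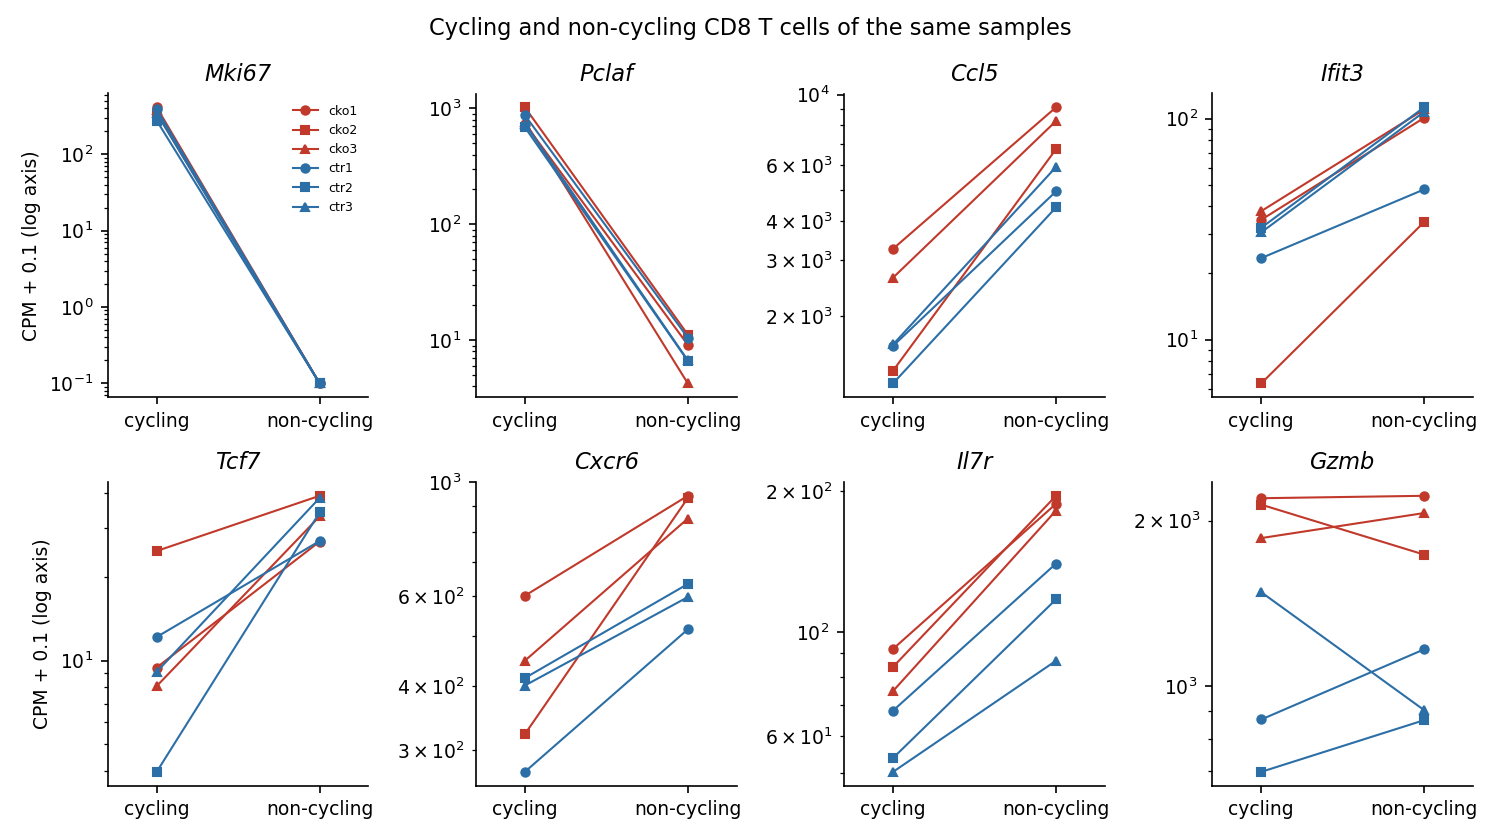
Level (CPM plus 0.1, log axis) of 8 genes in cycling cells (left) and non-cycling cells (right) of each sample, with a line joining the kinds within a sample, cko in red and ctr in blue. Mki67, a gate gene, and Pclaf are higher in cycling cells and Ccl5, Ifit3, Tcf7, Cxcr6 and Il7r lower in all 6 samples, while the lines of Gzmb cross.

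At equal depth the shares of cells with a UMI gave the same side for several of these genes. After thinning, 7 of 20 state genes were found in a smaller share of cycling than of non-cycling cells in all 6 samples: Lag3, Tigit, Tcf7, Il7r, Ly6c2, Cxcr6 and Ccl5. Cxcr6, a receptor of tissue-resident T cells, was found in 76.2%, 56.1% and 67.5% of cycling cells of cko and 50.3%, 65.5% and 61.2% of those of ctr. In non-cycling cells it was found in 85.0%, 83.4% and 82.1% of cko and 64.1%, 72.1% and 68.6% of ctr. Tcf7 was found in 1.82%, 4.07% and 3.03% of cycling cells of cko and 3.26%, 0.96% and 1.59% of those of ctr, which is a mean of 5.36 percentage points below non-cycling cells. Havcr2 was found in a mean of 26.0% of cycling and 24.7% of non-cycling cells. Barcodes with at least 10 UMIs of C1q, no receptor chain and no UMI of Cd3e, Cd3d or Cd3g were set beside these cells. They had median depths of 7383.5 to 10654 UMIs, and after thinning Cd8a was found in 0.27% to 2.33% of them. Tcf7 was found in 0.12% to 0.43%, Cxcr6 in 0.21% to 0.98%, Tigit in 0.35% to 1.53% and Lag3 in 0.56% to 5.01%. In the same thinned barcodes Il7r was found in 3.44% to 23.6%, Havcr2 in 18.5% to 26.7%, Ccl5 in 53.8% to 62.7% and Ly6c2 in 57.0% to 78.9%. For these 4 genes the barcodes give no background free of their own transcripts, and the part of such RNA in the shares above was not tested. Without thinning, the deeper cycling cells gave larger mean shares of Lag3, Tigit, Il7r, Ly6c2 and Cxcr6, against the direction of their CPM. Single samples still had the smaller share in cycling cells. These were cko replicates 1 and 3 and ctr replicate 1 for Il7r, ctr replicate 3 for Ly6c2 and cko replicate 2 for Cxcr6. Among gated cells with a UMI of Tcf7, without thinning, 5.85%, 14.2% and 7.14% were cycling in cko and 18.9%, 5.36% and 4.403% in ctr. Among those with a UMI of Havcr2, 13.1%, 20.3% and 13.5% were in cko and 22.7%, 18.4% and 13.3% in ctr. No order is read from these shares, since deeper cells have more chances of a UMI.

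Whether the difference between the genotypes was the same in both kinds of cell was tested as an interaction, over the 12 sums with the sample as a block. Of 10853 genes 117 passed (1.08%), 76 with a higher (0.7%) and 41 with a lower (0.378%) difference between cko and ctr in cycling than in non-cycling cells. With cko replicates 1 and 3 added together 81 passed. The number rested on single libraries, with 132, 186 and 20 genes without cko replicates 1, 2 and 3 and 9, 23 and 36 without ctr replicates 1, 2 and 3. Limited to cells of 5000 to 15000 UMIs it was 11, and 2 of these were among the 117.

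Replication genes formed 1 group of them. Of 42 S phase genes 6 had a higher difference in cycling cells (Mcm5, Pcna, Mcm2, Ung, Cdca7 and Uhrf1) and none a lower one, with a median interaction of 0.38 beside 0.04 over all genes tested. Mcm5, a subunit of the replicative helicase, measured 176, 209 and 181 CPM in cko and 148, 181 and 164 CPM in ctr in cycling cells and 16.3, 20.6 and 16.95 CPM in cko and 27.8, 30.2 and 27.5 CPM in ctr in non-cycling cells. The cycling cells of the groups overlapped, whereas the non-cycling cells of cko lay below those of ctr in each sample. Its log2 fold change between cko and ctr was 0.14 in cycling and -0.67 in non-cycling cells, an interaction of 0.88 (SE 0.12, edgeR adjusted p = 0.00306), which passed under all 18 alternatives run. Pcna, the sliding clamp of DNA polymerases, had log2 fold changes of 0.10 in cycling and -0.49 in non-cycling cells and an interaction of 0.64 (SE 0.13, edgeR adjusted p = 0.0266), which was lost without cko replicate 3 or any 1 of the ctr replicates (edgeR adjusted p from 0.0512 to 0.201). Of 17 licensing genes 3 passed (Mcm2, Mcm3 and Mcm5) and of 34 DNA synthesis genes 3 (Pcna, Dut and Shmt1), all higher. Besides Mcm5, each of these S phase, licensing and DNA synthesis genes lost the call without ctr replicate 1, which left Mcm5 as the 1 that passed with every replicate left out in turn.

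Cdca7, a target of E2F and Myc, measured 34.8, 68.9 and 43.5 CPM in cko and 21.2, 40.5 and 27.0 CPM in ctr in cycling cells and 3.28, 6.28 and 5.84 CPM in cko and 9.51, 9.68 and 7.61 CPM in ctr in non-cycling cells, with an interaction of 1.57 (SE 0.25, edgeR adjusted p = 0.00788). The base excision repair gene Apex1 measured 32.5, 47.1 and 37.7 CPM in cko and 34.99, 45.3 and 34.7 CPM in ctr in cycling cells and 11.9, 17.9 and 14.1 CPM in cko and 30.1, 31.5 and 26.6 CPM in ctr in non-cycling cells. The genotypes overlapped in cycling cells, and in non-cycling cells every cko sample lay below every ctr sample, with an interaction of 1.06 (SE 0.16, edgeR adjusted p = 0.00513). Cdca7 and Apex1 both lost the call without ctr replicate 1 (edgeR adjusted p of 0.0761 and 0.0665). Cxcr3 differed more between the genotypes in cycling cells, with a log2 fold change of 1.81, than in non-cycling cells, with 0.49. It measured 104, 78.3 and 106 CPM in cko and 45.5, 92.6 and 68.5 CPM in ctr in non-cycling cells, where ctr replicate 2 overlapped with cko, and the interaction was 1.31 (SE 0.16, edgeR adjusted p = 0.00259). Gzmk had 1.11 in cycling and 0.45 in non-cycling cells with an interaction of 0.68 (SE 0.12, edgeR adjusted p = 0.0148), and Lef1 had 1.77 in cycling and 0.84 in non-cycling cells (interaction of 0.98, edgeR adjusted p = 0.0361). Bcl2 had -2.08 in cycling and -1.22 in non-cycling cells (interaction of -0.79, edgeR adjusted p = 0.0148). The interaction of Lef1 was lost without cko replicate 1 or 3 or ctr replicate 1 or 2, that of Bcl2 without cko replicate 3 or ctr replicate 1 or 2, and that of Gzmk without cko replicate 3 or ctr replicate 1 or 3 (edgeR adjusted p from 0.0620 to 0.281). Havcr2, Tox and Ccr2 had log2 fold changes of 0.73, -1.10 and 0.89 in cycling cells and 0.80, -1.14 and 0.90 in non-cycling cells. Their interactions of 0.00 (SE 0.13), 0.07 (SE 0.24) and 0.05 (SE 0.15) did not pass (edgeR adjusted p of 0.999, 0.938 and 0.932).

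On the lower side, Rsad2, the antiviral protein viperin induced by interferon, measured 23.4, 4.58 and 24.7 CPM in cko and 29.6, 35.2 and 38.5 CPM in ctr in cycling cells and 67.3, 19.1 and 66.4 CPM in cko and 23.3, 46.8 and 46.4 CPM in ctr in non-cycling cells, with an interaction of -1.48 (SE 0.21, edgeR adjusted p = 0.00488). Without the highest doublet scores Rsad2 lost its call (edgeR adjusted p = 0.649), as it did without cells holding myeloid or B cell UMIs (0.786). Cycling cells of cko stood below their non-cycling cells in all 3 samples, which ctr samples did by little or not at all. Nt5e, which codes for the adenosine-producing enzyme CD73, measured 6.73, 6.66 and 6.93 CPM in cko and 24.3, 11.6 and 28.7 CPM in ctr in cycling cells and 17.7, 20.8 and 19.1 CPM in cko and 32.8, 16.7 and 29.6 CPM in ctr in non-cycling cells, with an interaction of -1.19 (SE 0.21, edgeR adjusted p = 0.0148). Ptgs2, the prostaglandin synthase COX-2, had the most negative interaction of the named genes at -2.03 (SE 0.33, edgeR adjusted p = 0.0361), but without cells holding myeloid or B cell UMIs it turned to 0.81. Its call was lost without cko replicate 3 or any 1 of the ctr replicates, and that of Nt5e without cko replicate 3 or ctr replicate 1 or 3 (edgeR adjusted p from 0.0596 to 0.228). Of the 6 genes named on the lower side, 1 kept its call without the highest doublet scores and 1 without cells holding myeloid or B cell UMIs. Aif1, Qpct and Vegfa also passed on the lower side and lost the call without cko replicate 3 or ctr replicate 1 or 2 (Vegfa also without cko replicate 1), and Aif1 is a macrophage gene whose level moved with the macrophage markers above.

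**Figure D5:**
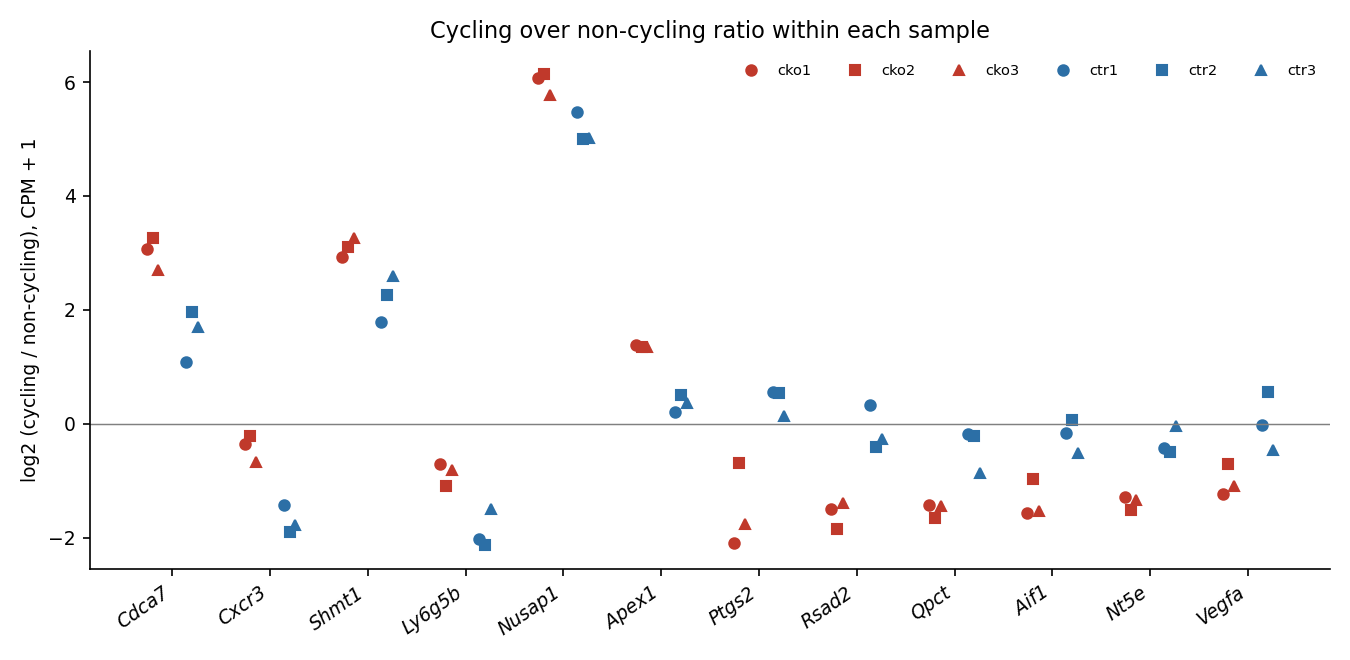
Ratio of cycling to non-cycling cells within each sample (log2 of CPM plus 1, vertical) for the 12 genes named in the interaction test, with 1 point per sample, cko in red on the left and ctr in blue on the right of each gene. The cko points lie above the ctr points in the 6 genes on the left and below them in the 6 on the right.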

How the data were processed

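The deposited files held raw UMI counts per gene and barcode for 6 libraries, with T cell receptor contigs beside them, and the counts were not normalised by the authors as far as the values show. Reads were processed with Cell Ranger 7.0.0 on GRCm38, per the submitters' processing notes. Nothing in the labels or headers says whether doublets or free RNA had been removed.

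Counts of the gated cells were summed per sample and kind of cell, filtered with filterByExpr and tested with edgeR 4.0.16 (robust quasi-likelihood fit, TMM) in R 4.3.3, with Benjamini-Hochberg adjustment and a threshold of 0.05. Cycling cells of cko and ctr were compared over 6 sums. The interaction, and the description of cycling against non-cycling cells, used 12 sums with the sample as a block, so that their CPM differ slightly from those over 6 sums. The design listed a test for that description and for the shares of state genes, but the same transcripts sorted the cells and no p-value is given for them. Single values were compared with exact permutation tests in scipy 1.17.1, thinned shares are means over 20 draws, and expansion used alpha and beta chains with the same segments and CDR3 bases. Scrublet in scanpy 1.11.5 called 0.426% of 41094 barcodes at its automatic threshold, which is too few to serve as a doublet call, so doublets stayed in and the 5% of barcodes with the highest scores were left out as an alternative.

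On simulated counts with 200 changed genes, the test of cko against ctr recovered 59% of changes of a log2 of 1 among 9960 genes and 91% of those of a log2 of 2 among 9953. Of its calls on these counts 9.92% and 4.21% were false, and of those of the interaction 11.6% at a log2 of 1 among 10660 genes and 4.5% at a log2 of 2 among 10674. Genes were named when they passed with at least 20 CPM on average in 1 group and no overlap between groups, up to 12 per direction by size of change (6 for the interaction). Receptor and immunoglobulin segments, mitochondrial, ribosomal and unnamed genes were left out, and 45 key genes and the members of 20 lists were followed besides. The members and lists were chosen with earlier results of these data known. Alternatives were DESeq2 1.42.0 and its size factors, no filter on low counts, receptor or mitochondrial and ribosomal genes left out, other gates, other cell filters, each replicate left out, a replicate block and cko replicates 1 and 3 added together. The limits to 5000 to 15000 UMIs for cko against ctr and for the interaction, the interaction without cells holding myeloid or B cell UMIs, and the results without the mostly cycling clonotype were added after seeing the data.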

Additional observations from a re-analysis of the deposited data

Results flagged for a closer look

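The difference between cko and ctr itself differed between cycling and non-cycling cells in 117 genes by edgeR's interaction test, and 12 of them are named by size. The interaction, on the log2 scale as cycling minus non-cycling, was 1.57 for Cdca7, 1.31 for Cxcr3, 1.19 for Shmt1, 1.19 for Ly6g5b, 1.07 for Nusap1 and 1.06 for Apex1. It was -2.03 for Ptgs2, -1.48 for Rsad2, -1.26 for Qpct, -1.25 for Aif1, -1.19 for Nt5e and -1.06 for Vegfa. Shmt1, a folate enzyme, had log2 fold changes between cko and ctr of -0.05 in cycling and -1.22 in non-cycling cells. Nusap1, a spindle protein, had 0.06 in cycling and -0.98 in non-cycling cells. Its non-cycling cells held 1.55, 1.23 and 1.78 CPM in cko and 3.22, 2.70 and 3.22 CPM in ctr, so that its difference rests on low counts. The call of Nusap1 was lost whichever replicate was left out (edgeR adjusted p from 0.0722 to 0.185), and Shmt1 and Ly6g5b each kept theirs in 1 of 6 such fits. Of the 6 genes with a negative interaction 1 kept its call without the highest doublet scores and 1 without cells holding myeloid or B cell UMIs, and of the 6 with a positive one 4 and 2 did. At 5000 to 15000 UMIs none of the 12 passed in edgeR. Groups of 3 samples were not tested for single samples that stand apart.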

How the results depend on the processing

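For cko against ctr in cycling cells, 236 genes passed and 462 did with no filter on low counts, 140 without the highest doublet scores, 104 with a gate on Birc5, Cdk1 and Tyms, 130 without cells holding myeloid or B cell UMIs and 107 among cells with 5000 to 15000 UMIs. Leaving out 1 replicate gave 115 to 395 genes. For the interaction the count of 117 became 484, 56, 40 and 11 with no filter, the Birc5, Cdk1 and Tyms gate, without myeloid or B cell UMIs and at 5000 to 15000 UMIs, and 9 to 186 with 1 replicate left out. For cycling against non-cycling cells 2539 genes passed at 5000 to 15000 UMIs and 4949 to 5501 with 1 replicate left out. For cko against ctr in non-cycling cells 143 passed with cko replicates 1 and 3 added together and 105 to 962 with 1 replicate left out. DESeq2 called 304 genes in cycling cells, 189 of them among the 236.

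The gap in expanded clonotypes of 3.58 percentage points stayed positive but lost its call by the beta chain alone (4.55), from 5 cells (2.13), without the mostly cycling clonotype (3.21), with cko replicates 1 and 3 added together (4.19) and with any 1 sample left out (2.54 to 4.19, where 5 pairs cannot reach 0.05). The difference between genotypes in that share turned to -0.47 without the mostly cycling clonotype and -1.61 at equal cell numbers, and ranged from -1.24 to 2.52 with 1 replicate left out. The cycling share ranged from -3.35 to 0.62 and the S phase balance from -2.36 to 0.60 percentage points with 1 replicate left out. State genes lower or higher in all samples numbered 11 with no thinning and 11 without the highest doublet scores, and 7 to 9 with 1 replicate left out. With no thinning Lag3 turned to 8.64, Tigit to 5.89, Il7r to 0.61, Ly6c2 to 2.48 and Cxcr6 to 4.59 percentage points, where deeper cycling cells have more chances of a UMI. Single genes that turned were Tcf7 (-0.088 without cko replicate 2, with a range of -0.088 to 1.06 over the replicates left out), Ptgs2 (0.81 without myeloid or B cell UMIs) and Cd160 (-0.11 in the interaction at 5000 to 15000 UMIs), and the cause was not tested.

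Whether replicate numbers pair the samples was not tested. In cycling cells, same-numbered samples had correlations of 0.0951, 0.104 and 0.0246, and differently numbered ones had -0.0953 to 0.0136. In non-cycling cells, same-numbered samples had -0.0296, 0.0186 and 0.0455, and differently numbered ones had -0.0567 to 0.036. With the replicate block 321 genes passed in cycling cells, against 236 without it, and 655 in non-cycling cells, against 691. Cycling cells of 101 to 282 per sample limit low genes, and the intervals cover counting error only.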

Other observations

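Shared clonotypes, given as values with no test: 79 paired clonotypes were found in both cko replicate 1 and cko replicate 3, and no other pair of libraries shared more than 1. In cycling cells NK cell markers (Ncr1, Klrb1c, Klra8, Eomes, Tyrobp) summed to 84.3 to 102 CPM in cko and 140 to 208 CPM in ctr. Among them Eomes averaged 37.6 CPM in cko and 22.8 CPM in ctr. CD4 and Treg markers (Cd4, Foxp3, Il2ra, Ikzf2, Cd40lg) summed to 89.5 to 134 CPM in cko and 104 to 142 CPM in ctr. Dendritic cell markers summed to 46.9 to 199 CPM in cko and 74.6 to 182 CPM in ctr. Neutrophil markers summed to 0.85 to 1.77 CPM in cko and 1.77 to 10.7 CPM in ctr, and red cell markers to 0 to 0.22 CPM in cko and 0 CPM in ctr.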
